A study of Homo sapiens with 12 samples.

Results

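The genes described here encode the proteins of the cytosolic (80S) ribosome. They were taken by name, as every gene symbol made of RPL or RPS, a number and at most one of the letters A, X and L, with RPLP0, RPLP1, RPLP2 and RPSA. The rule found 81 genes among the 60645 gene names, all present in all 12 count tables, of which 49 belong to the large (60S) and 32 to the small (40S) subunit. No measured value entered the rule. It leaves out FAU, which encodes a ribosomal protein fused to a ubiquitin-like protein, and RACK1, and it takes in the tissue-restricted paralogues RPL3L, RPL10L and RPL39L and the stress-responsive paralogue RPS27L. RPL10L, a copy of RPL10 used in the testis, had 0 counts in all 12 libraries, and the other 80 genes passed the filter on low counts and were tested.

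PolyA RNA was sequenced from 12KO, a derivative of the human embryonic kidney line HEK-293T in which ARID1A, a subunit of the SWI/SNF chromatin remodelling complex, was knocked out. The labels do not say whether 12KO is 1 clone. All 6 groups carry this knockout, and each has 2 libraries, numbered repeat 1 and repeat 2. The cells overexpressed an empty vector (no ARID1A), wild-type ARID1A (WT) or ARID1A without the disordered segment IDR1b (ΔIDR1b), each together with a second empty vector or with EWS-FLI1, the fusion transcription factor of Ewing sarcoma. The protocol gives 2 µg of EWS-FLI1 plasmid in pcDNA and harvest 48 h after transfection, and it does not say how ARID1A was delivered. The study asked what IDR1b does in gene regulation by EWS-FLI1. Nothing in the labels says that repeats came from separate cultures, so p-values measure the spread between these libraries, which may be technical.

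Each library held 11702251 to 14445379 counts. Levels are given as CPM, that is, counts relative to a library size scaled with edgeR's TMM method, with scaling factors from 0.932 to 1.08. Only the CPM of the cell markers in the next sentence were scaled by total counts alone, without TMM. The kidney-line markers CKB, LIN28B and PAX2 were present (at least 7.75 CPM in every library) while NEFM had at most 1 count, and of the markers of other cells, the fibroblast gene COL1A1 was present (69.9 to 111 CPM) while DCN and LUM had at most 35 counts, and 8 of the 9 markers of blood, liver and endothelium had at most 13 counts, with APOA1 at up to 16. The introduced genes matched the labels: without overexpression the ARID1A transcript was at 147 to 164 CPM, the WT libraries had 1843 to 2291 CPM, and the ΔIDR1b libraries 2608 to 2878 CPM. All 4 ΔIDR1b libraries thus lay above all 4 WT libraries, so ΔIDR1b against WT is also a comparison at a higher level of the ARID1A transcript, whose part in the results was not tested. FLI1 stood at 3675 and 3462 CPM in WT with EWS-FLI1, against 1830.0 and 1688 in no ARID1A and 1888 and 1906 in ΔIDR1b, so the comparisons of WT with EWS-FLI1 below are also comparisons at a higher level of the fusion transcript.

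The ribosome is built from ribosomal RNAs and one copy of nearly every ribosomal protein per subunit, and cells keep the proteins' output in step. Most ribosomal protein mRNAs are short, very abundant and begin with a 5′ terminal oligopyrimidine (TOP) tract, a C followed by a run of C and T that lets the mTORC1 pathway and LARP1 regulate their translation and stability together. Ribosomal proteins without a place in a ribosome are degraded, and some of them, RPL5 and RPL11 among them, bind MDM2 and so activate p53.

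The start sites in RefSeq (GRCh38.p14) show this shared feature, for which the following 30-base windows were chosen. Of the 81 genes, 64 had an entry, and 46 of these (71.9%) began, at any start listed for the gene, at C followed without a break by C or T for a run of at least 5 letters, against 5.14% of 27305 genes in the table and 8.57% of 70 genes of the mitochondrial ribosome. Counted by starts, they were 58.2% of 79 against 4.07% of all starts. Each window runs from 15 bases before the start site to 15 bases from it onward, 5′ to 3′ on the gene's strand. Capitals mark the pyrimidine run that starts at the first transcribed base.
RPLP0 (chr12:120201097-120201126, minus strand): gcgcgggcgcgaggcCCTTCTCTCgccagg
RPS21 (chr20:62387088-62387117, plus strand): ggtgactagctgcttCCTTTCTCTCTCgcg
RPL38 (chr17:74203663-74203692, plus strand): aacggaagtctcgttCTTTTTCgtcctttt
RPL41 (chr12:56116618-56116647, plus strand): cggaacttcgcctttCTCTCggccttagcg
RPL34 (chr4:108620561-108620590, plus strand): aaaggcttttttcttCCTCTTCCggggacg
RPL29 (chr3:51995881-51995910, minus strand): caccgcagcccctttCTCTTCCggttctag
RPS10 (chr6:34426055-34426084, minus strand): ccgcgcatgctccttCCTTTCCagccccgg
RPL36A (chrX:101390996-101391025, plus strand): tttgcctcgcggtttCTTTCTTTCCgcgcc
RPS27L (chr15:63157463-63157492, minus strand): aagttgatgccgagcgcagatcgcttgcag
The stalk gene RPLP0 shows the class, and RPS21, RPL38 and RPL41 stand for short coding sequences. RPL34 (the listed start of its pair that has a run) and RPL29 stand for large falls. RPS10 and RPL36A stand for genes discussed below of whose coding bases few were counted. RPS27L, with no pyrimidine run at this start, stands for the genes without a run. Those also include RPL3, RPL4, RPL17, RPS28 and RPS29, whose windows are not shown. RPS28 and RPS29 have shorter coding sequences than RPS21, and RPL17 had a larger fall than RPL34. The letters CCGGAAG, searched on both strands from 250 bases before to 50 after the start, were found in 23 of the 64 genes (35.9%), in 12.2% of all genes in the table and in 42.9% of those of the mitochondrial ribosome.

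Ribosomal protein mRNAs made up a smaller share of the libraries with ΔIDR1b ARID1A than of the others. They took 8.45% and 7.78% of all counts in the no ARID1A libraries that lack EWS-FLI1 and 8.34% and 8.20% in those that have it. In WT the shares were 8.19% and 7.23% without and 7.39% and 6.92% with EWS-FLI1, and in ΔIDR1b 5.86% and 5.26% without and 5.41% and 6.11% with it. All 4 ΔIDR1b libraries lay below all 8 others. The large-subunit genes held 1.52 to 1.55 counts for each count of the small-subunit genes in every library, so both subunits moved by nearly the same factor. These are shares of polyA RNA in bulk samples, in which fewer cells with a high level and less of the RNA per cell cannot be told apart.

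**Figure D1:**
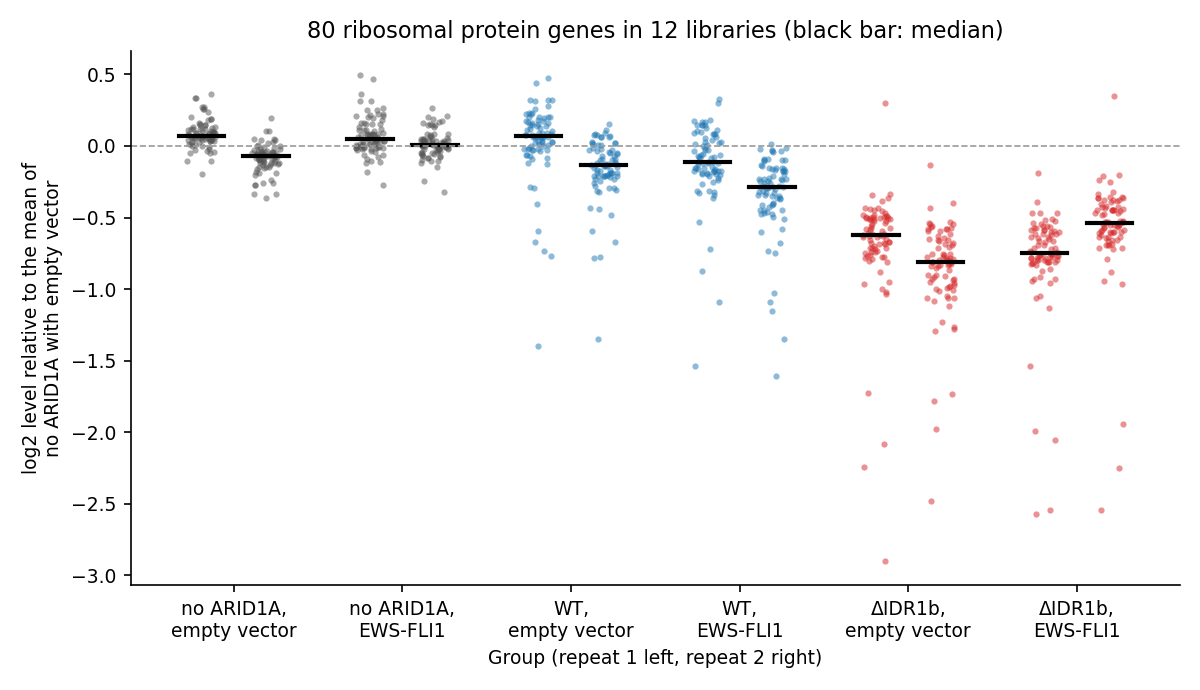
Level of 80 ribosomal protein genes in each of the 12 libraries, as log2 CPM minus the gene's mean in no ARID1A with the empty vector (vertical axis), 1 point per gene, groups along the horizontal axis and a black bar at the library's median. The medians of the 4 ΔIDR1b libraries lie between -0.81 and -0.54, those of the other 8 between -0.28 and 0.07.

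Relative to the mean of no ARID1A with the empty vector, the median gene stood at 0.07 and -0.07 in the 2 libraries of that group and at 0.05 and 0.01 with EWS-FLI1, on the log2 scale. The WT libraries had medians of 0.07 and -0.14, and of -0.11 and -0.28 when EWS-FLI1 was present. In ΔIDR1b the values were -0.62 and -0.81, and -0.75 and -0.54 with EWS-FLI1. The plot of the levels by library shows nearly the whole cloud of genes lower in ΔIDR1b.

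The first comparison between states asked how the cells with ΔIDR1b ARID1A differ from those with none, both with the empty vector. Of the 80 genes tested, 79 were lower in ΔIDR1b and 0 higher at an adjusted p under 0.05 (edgeR quasi-likelihood test, Benjamini-Hochberg over all 20377 genes tested), against 16.8% of all genes that were lower and 16.4% that were higher. The median of the 80 was a log2 fold change of -0.72 (a fold of 0.609), with the middle of the genes at -0.84 to -0.61 (quartiles), while the median of all genes tested was 0.00396. In all 79 the 2 + 2 libraries did not overlap, but these genes were already selected by adjusted p. The share of all genes without overlap was not counted. RPL39L, the testis-enriched copy of RPL39, was the exception, at 12.3 and 9.95 CPM without ARID1A and 13.7 and 10.1 CPM with ΔIDR1b (log2 fold change 0.09 with an SE of 0.23, adjusted p = 0.797).

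The stalk of the large subunit, which recruits the elongation factors, is made of RPLP0, RPLP1 and RPLP2. RPLP0, its base, stood at 2866 and 2694 CPM in no ARID1A and 1929 and 1842 CPM in ΔIDR1b (log2 fold change -0.56 with an SE of 0.09, adjusted p = 1.38e-05). RPLP1 fell from 1689 and 1611 to 971 and 868 CPM (log2 fold change -0.84 with an SE of 0.10, adjusted p = 3.51e-08) and RPLP2 from 988 and 847 to 569 and 465 CPM (log2 fold change -0.83 with an SE of 0.11, adjusted p = 3.76e-07). All 3 genes of the stalk were thus lower in both ΔIDR1b libraries than in both controls.

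RPL5 and RPL11, which join the 5S ribosomal RNA before it enters the large subunit, moved by similar amounts. RPL5 stood at 2020.3 and 1924 CPM without ARID1A and at 1315 and 1251 with ΔIDR1b (log2 fold change -0.62 with an SE of 0.09, adjusted p = 1.77e-06). RPL11 stood at 618 and 539 CPM in no ARID1A against 388 and 336 CPM in ΔIDR1b (log2 fold change -0.68 with an SE of 0.10, adjusted p = 3.90e-06). Both genes were lower in ΔIDR1b with no overlap of the libraries.

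In the small subunit, RPS6, the classic substrate of the S6 kinases, went from 1698 and 1824 to 1283 and 994 CPM (log2 fold change -0.63 with an SE of 0.10, adjusted p = 1.39e-05). RPS27A, made as a fusion with ubiquitin, went from 701 and 606 to 482 and 449.5 CPM (log2 fold change -0.49 with an SE of 0.11, adjusted p = 4.76e-04), one of the smaller falls. RPS2, the gene with the highest level per kilobase of exon (2159 CPM per kb over the 6 groups), went from 6134 and 6137 to 4069.8 and 3791 CPM (log2 fold change -0.64 with an SE of 0.10, adjusted p = 3.09e-06). RPS3, which with RPS2 lines the mRNA entry, had a log2 fold change of -0.59 (SE 0.09, adjusted p = 9.97e-06), and RPSA, at the back of the head near the mRNA exit, one of -0.58 (SE 0.10, adjusted p = 1.35e-05).

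The falls differed in size among the genes. Among the smaller of those called were those of RPL6 (-0.39) and RPL27 (-0.46) on the log2 scale, 2 genes chosen after their values were seen. Among the larger were those of RPS10 (log2 fold change -2.67), RPL17 (-2.11) and RPL3L (-1.89), and further down RPL34 (-1.12), RPS29 (-1.09), RPS15A (-1.04), RPL26 (-1.01), RPL36 (-1.01) and RPL38 (-0.98). RPL34, a protein of the large subunit that is counted over all of its coding bases, stood at 517 and 429 CPM without ARID1A and 236 and 200.2 CPM with ΔIDR1b (SE 0.12, adjusted p = 1.32e-08). RPL3L, the striated-muscle copy of RPL3, had only 41 and 42 counts without ARID1A and 10 and 13 with ΔIDR1b, and its SE of 0.50 is the widest of these.

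With EWS-FLI1 the same pair of states, in libraries that the first comparison did not use, gave 78 of 80 genes lower in ΔIDR1b and 0 higher, against 17.9% of all genes that were lower and 18.1% that were higher (edgeR). The median log2 fold change was -0.67 (a fold of 0.631), with quartiles of -0.80 to -0.56. All 78 genes were among the 79 called with the empty vector. RPLP0 stood at 2568 and 2689 CPM without ARID1A and 1779.5 and 2078 CPM with ΔIDR1b (log2 fold change -0.45 with an SE of 0.09, adjusted p = 2.60e-04), RPL34 at 543 and 498 CPM in no ARID1A against 228 and 272 CPM in ΔIDR1b (log2 fold change -1.06 with an SE of 0.12, adjusted p = 3.18e-08). For this pair of states the sizes of the falls ranked alike with and without EWS-FLI1, with Pearson's r = 0.928 and Spearman's rho = 0.953 across the 80 genes. For WT against no ARID1A these were 0.755 and 0.407. For ΔIDR1b against WT they were 0.419 and 0.117, so there the sizes hardly ranked alike. Part of these values rested on the genes with many shared coding bases, described below. Over the 71 genes with few, r and rho were 0.411 and 0.305 for WT against no ARID1A. For ΔIDR1b against WT they were -0.015 and 0.018, and for ΔIDR1b against no ARID1A 0.83 and 0.95. The 80 genes are not independent and share their length and their base composition between both comparisons.

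RPL29, a small basic protein of the large subunit, differed more between the 2 libraries of ΔIDR1b with EWS-FLI1 than any other gene but RPL3L. It stood at 1333 and 1348 CPM in no ARID1A with EWS-FLI1 and at 489 and 864 CPM in ΔIDR1b with EWS-FLI1 (log2 fold change -0.99 with an SE of 0.14, adjusted p = 9.76e-07). The 2 ΔIDR1b libraries differed from each other by a log2 value of -0.82, while RPL3L differed by -1.47 and the median gene by -0.21 there (repeat 1 minus repeat 2). RPL29 without EWS-FLI1 stood at 1467 and 1375 CPM in no ARID1A against 825 and 760.0 CPM in ΔIDR1b (log2 fold change -0.84 with an SE of 0.14, adjusted p = 1.35e-05).

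**Figure D2:**
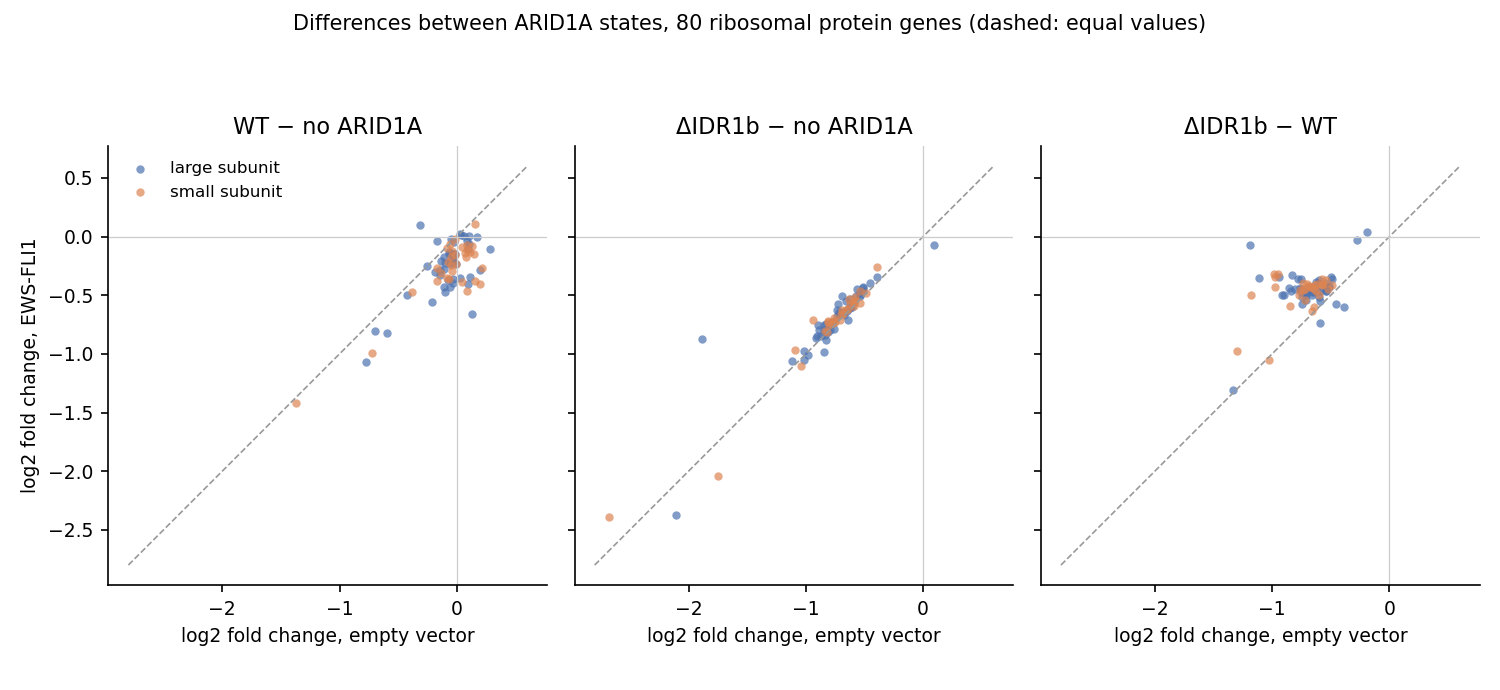
Log2 fold change of 80 ribosomal protein genes between 2 ARID1A states, with the empty vector (horizontal axis) and with EWS-FLI1 (vertical axis), 1 point per gene and 1 panel per pair of states, with the large subunit in blue and the small in orange. In the middle panel the genes lie along the dashed line of equal values around medians of -0.72 and -0.67, and in the left panel most lie between -0.5 and 0.2 on both axes.

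Cells with ΔIDR1b were then compared with cells that had received WT ARID1A. With the empty vector, 77 of 80 genes were lower in ΔIDR1b and 0 higher, against 13.4% of all genes that were lower and 11.1% that were higher (edgeR), with a median log2 fold change of -0.66. RPL3L, RPL36A and RPL39L were not called (log2 fold changes -1.19, -0.27 and -0.19). RPL38, a small protein of the large subunit, had 301 and 264 CPM in the WT libraries against 159 and 103 CPM in ΔIDR1b (log2 fold change -1.11 with an SE of 0.17, adjusted p = 1.00e-05), and RPS29, a zinc-binding protein of the small subunit, had 266 and 223 CPM in WT against 123 and 93.3 CPM in ΔIDR1b (log2 fold change -1.18 with an SE of 0.18, adjusted p = 1.25e-05). In the stalk, RPLP0 had a log2 fold change of -0.51, RPLP1 of -0.74 and RPLP2 of -0.75, all called.

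With EWS-FLI1, 71 of 80 genes were lower in ΔIDR1b and 0 higher, against 10.1% of all genes that were lower and 8.48% that were higher, with a median log2 fold change of -0.44 (a fold of 0.735). The libraries did not overlap for 68 of them, which were already selected by adjusted p, and the share over all genes was not counted. Among the larger falls were those of RPL17 (-1.31), RPS10 (-0.97), RPL29 (-0.74), RPS15A (-0.64), RPL22 (-0.60) and RPS3A (-0.60) on the log2 scale. The 9 genes not called were RPL36A, RPL3L and RPL39L and the short genes RPL38, RPL37A, RPL41, RPS27, RPS27L and RPS28. RPL38 shows how: the WT libraries held 241 and 168 CPM, the ΔIDR1b libraries 147 and 174 CPM (log2 fold change -0.35 with an SE of 0.17, adjusted p = 0.141), so that the lower WT library lay below the higher ΔIDR1b library. RPS3A, which sits on the small subunit's platform, stood at 1073 and 877 CPM in WT against 605 and 683 CPM in ΔIDR1b without overlap (log2 fold change -0.60 with an SE of 0.10, adjusted p = 4.71e-05). The count was 34 without the first ΔIDR1b library with EWS-FLI1 and 35 when only these 4 libraries were fitted.

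Genes whose mutation causes Diamond-Blackfan anaemia, an inherited failure of red cell production, were chosen for that role and followed through the states. RPS19, the one most often affected, stood at 1708 and 1454 CPM without ARID1A, 1636 and 1382 CPM in WT and 1004 and 811 CPM in ΔIDR1b with the empty vector (ΔIDR1b against no ARID1A log2 fold change -0.80 with an SE of 0.11, adjusted p = 3.23e-07). RPL35A stood at 469.5 and 354 CPM in no ARID1A, 449 and 392 CPM in WT and 268 and 202 CPM in ΔIDR1b (log2 fold change -0.81 with an SE of 0.13, adjusted p = 5.77e-06). RPS26 stood at 162 and 124 CPM in no ARID1A, 166 and 151 CPM in WT and 110.5 and 86.4 CPM in ΔIDR1b (log2 fold change -0.54 with an SE of 0.14, adjusted p = 0.0033). In all 3 genes the ΔIDR1b libraries were the lowest of the 6. With EWS-FLI1, RPS19 stood at 1706 and 1670.3 CPM in no ARID1A, 1373 and 1255 CPM in WT and 926 and 1075 CPM in ΔIDR1b, and RPL5 and RPL11 had log2 fold changes of -0.53 and -0.64 for ΔIDR1b against no ARID1A, both called.

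Few of these genes differed between WT and no ARID1A when EWS-FLI1 was absent. With the empty vector, 6 of 80 genes were lower in WT than in no ARID1A and 0 higher, against 5.19% of all genes that were lower and 6.5% that were higher (edgeR), and the median log2 fold change was -0.04, which changed sign (-0.14 to 0.08) when 1 library was left out. The share of the 80 that was lower was thus close to that of all genes. The genes called include RPS10, RPL17, RPL36A, RPL26 and RPS15A. RPS10, whose mutation is a cause of Diamond-Blackfan anaemia as is that of RPL26, stood at 50.9 and 53.8 CPM without ARID1A and 19.9 and 20.6 CPM with WT (log2 fold change -1.37 with an SE of 0.15, adjusted p = 1.21e-07). RPL17, near the exit of the peptide tunnel, stood at 77.3 and 89.5 CPM in no ARID1A against 48.8 and 48.6 CPM in WT (log2 fold change -0.78 with an SE of 0.13, adjusted p = 7.63e-05). RPL26 stood at 132 and 129.7 CPM in no ARID1A against 98.9 and 96.4 CPM in WT (log2 fold change -0.42 with an SE of 0.12, adjusted p = 0.02). In each of the 6 genes, already selected by adjusted p, the libraries of WT lay below those of no ARID1A. The count was 3 without the second library of either group.

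All 6 are among the genes whose coding bases are shared with another gene name. Fragments that overlap exons of more than one gene name were not counted, and in 9 of the 81 genes at least 50% of the coding bases lie in an exon of another gene name, a limit set after the values were seen. The share is 100% in RPL17 (with the readthrough gene RPL17-C18orf32), 94.3% in RPL36A (RPL36A-HNRNPH2), 92.1% in RPS10 (RPS10-NUDT3), 71.0% in RPL26 and 54.6% in RPS15A, and 59.9%, 54.1% and 51.6% in RPL22, RPS23 and RPL30. Counts of these genes come from the rest of their exons. The 3 named readthrough genes had at most 13 counts in any library. Of the 71 tested genes with a smaller shared share, 0 were called for WT against no ARID1A with the empty vector and 70 for ΔIDR1b, with medians of -0.03 and -0.70 on the log2 scale. Whether the mature mRNAs of these genes fell with WT was not tested by these counts.

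**Figure D3:**
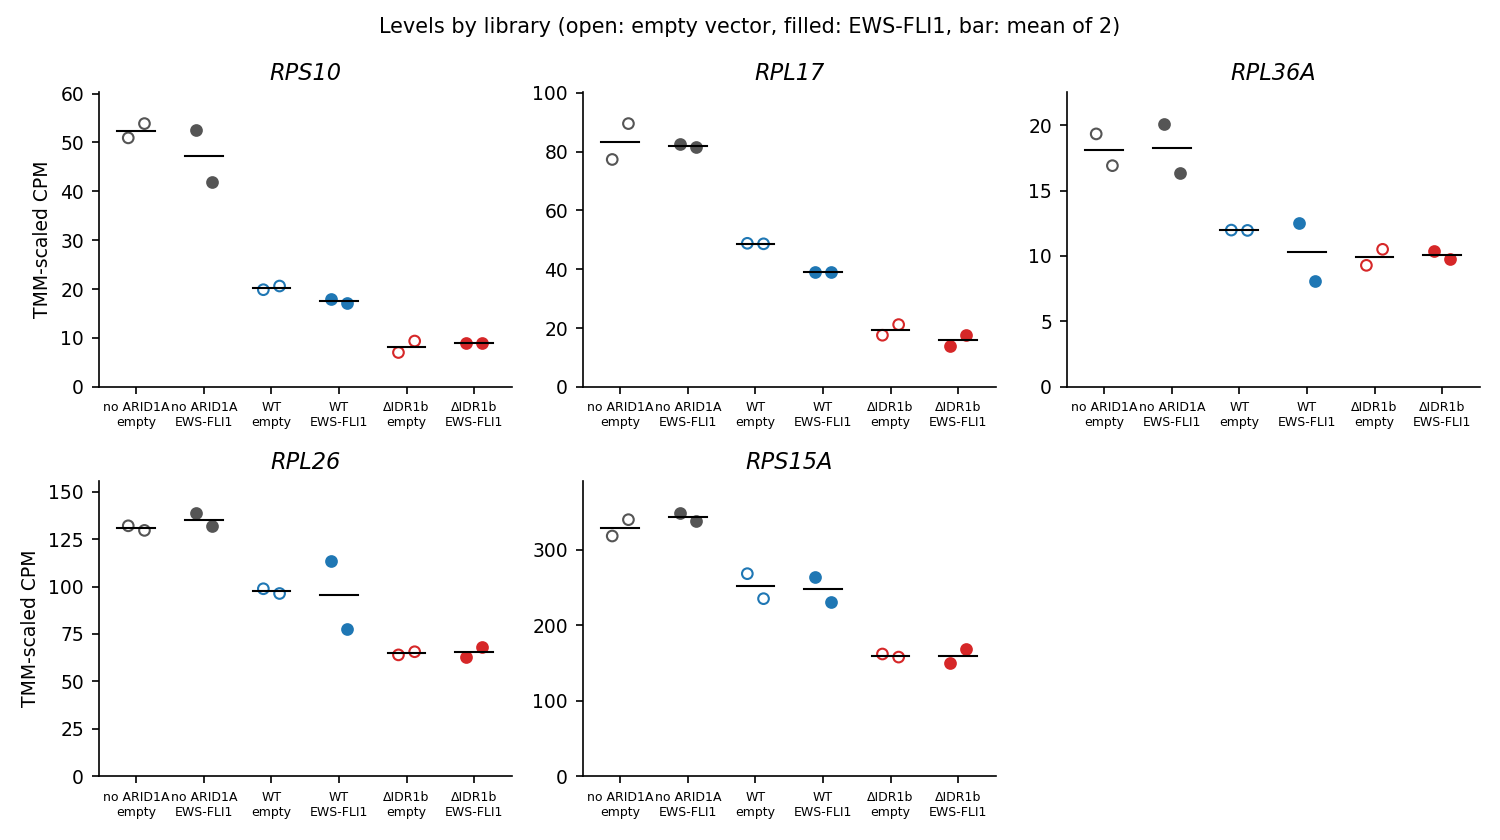
TMM-scaled CPM (vertical axis, from 0) of RPS10, RPL17, RPL36A, RPL26 and RPS15A, genes called lower in WT than in no ARID1A with the empty vector, in each library of the 6 groups (horizontal axis), with open points for the empty vector, filled points for EWS-FLI1 and a bar at the mean of 2 libraries. For RPS10 the libraries of no ARID1A lie between 41.8 and 53.8, those of WT between 17.2 and 20.6 and those of ΔIDR1b between 7.02 and 9.36.

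RPS10 and RPL17 stood lower again in ΔIDR1b than in WT. RPS10 stood at 7.02 and 9.36 CPM without EWS-FLI1 and 8.99 and 8.97 CPM in its presence, against WT a log2 fold change of -1.30 (adjusted p = 1.20e-06) and -0.97 (adjusted p = 1.30e-04). RPL17 stood at 17.5 and 21.2 CPM and, with EWS-FLI1, at 14.01 and 17.5 CPM (log2 fold changes against WT -1.33 and -1.31). RPL36A differed from this order, with 9.28 and 10.5 CPM in ΔIDR1b against 12.0 and 12.0 CPM in WT, a difference not called (adjusted p = 0.352).

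With EWS-FLI1, 22 of 80 genes were lower in WT than in no ARID1A and 0 higher, against 8.36% of all genes that were lower and 9.72% that were higher, and the median log2 fold change was -0.22 (a fold of 0.859), or -0.32 to -0.13 with 1 library left out. Among the 71 genes with few shared coding bases, 15 were called. They include RPL34, with 543 and 498 CPM in no ARID1A and 412 and 294 CPM in WT (log2 fold change -0.56 with an SE of 0.12, adjusted p = 0.00128), RPL38 (355 and 290.1 against 241 and 168 CPM, log2 fold change -0.66 with an SE of 0.17, adjusted p = 0.00478), and the stalk gene RPLP2 (1016 and 950.3 against 809.8 and 711 CPM, log2 fold change -0.37 with an SE of 0.11, adjusted p = 0.015). In RPL34 and RPL38 the second WT library was lower than the first. RPLP0, RPL5, RPL11, RPS2, RPS6, RPS27A and RPSA were not called (log2 fold changes -0.02, -0.13, -0.21, -0.12, -0.08, -0.07 and -0.09). With the repeat number as a block the count was 43; same-numbered libraries deviated together among the libraries with EWS-FLI1. The count was 5 without the first library of no ARID1A with EWS-FLI1, 44 and 12 without the first and the second library of WT with EWS-FLI1, 35 with upper-quartile scaling and 14 when only these 4 libraries were fitted.

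EWS-FLI1 itself was compared with the empty vector within each ARID1A state, the effect the study set out to measure. With all 12 libraries, the filter on low counts and no block for repeats, no ribosomal protein gene was called in any state by edgeR or by DESeq2. With the repeat number as a block, edgeR called 4 genes lower in WT and 2 higher in ΔIDR1b (RPS27 and RPS29 among the former, RPS29 among the latter). Of all genes, 0.584% and 0.535% were then called in either direction. With neither the block nor the filter on low counts, edgeR called 2 lower in WT, beside 0.189% of all genes. In no ARID1A the median log2 fold change was 0.03. At an unadjusted p under 0.05 stood 0 of the 80 genes and 643 of all 20377, and 0.0442% of all genes were called. In WT the median was -0.15, with 78 of 80 genes below 0. At an unadjusted p under 0.05 stood 10 of the 80, all lower, and 1331 of all 20377 genes, and 0.221% of all genes were called. In ΔIDR1b the median was 0.08, with 70 of 80 above 0. At an unadjusted p under 0.05 stood 2 of the 80, both higher, and 1110 of all 20377 genes, and 0.172% of all genes were called. RPL38 had the lowest value of the 80 in WT: 301 and 264 CPM without and 241 and 168 CPM with EWS-FLI1 (log2 fold change -0.47 with an SE of 0.17, adjusted p = 0.523). With 1 library left out, the median ran over -0.05 to 0.09 in no ARID1A, -0.25 to -0.04 in WT and -0.02 to 0.17 in ΔIDR1b, so that it changed sign in no ARID1A (without the second library with the empty vector) and in ΔIDR1b (without the second library with EWS-FLI1). The number of genes called in WT and in ΔIDR1b also changed with 1 library left out, where a group kept 1 library.

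Whether EWS-FLI1 acted differently in different states was tested as an interaction. With all 12 libraries, the filter on low counts and no block, edgeR and DESeq2 called 0 of 80 genes in each of the 3. For WT minus no ARID1A the median was -0.17 on the log2 scale. An unadjusted p under 0.05 was reached by 14 of the 80 genes (13 of them lower) and by 884 of all 20377, and 0.0245% of all genes were called. RPL38 (-0.78, SE 0.23), RPL37 (-0.46), RPS27 (-0.60), RPL41 (-0.48) and RPL37A (-0.50) had the smallest p-values. For ΔIDR1b minus WT the median was 0.22. Here 18 of the 80 genes, all higher, and 741 of all 20377 had an unadjusted p under 0.05, and 0% of all genes were called. The 18 were led by RPL38 (0.76, SE 0.24), RPS27L (0.66) and RPL37A (0.59). For ΔIDR1b minus no ARID1A the median was 0.04. There 0 of the 80 genes and 702 of all 20377 had an unadjusted p under 0.05, and 0.0196% of all genes were called. Among the smallest p-values were those of RPL3L (1.01), RPL17 (-0.27) and RPS10 (0.28). With 1 library left out the medians ran over -0.28 to -0.07 for WT minus no ARID1A, 0.10 to 0.32 for ΔIDR1b minus WT and -0.06 to 0.14 for ΔIDR1b minus no ARID1A. With repeats blocked inside each vector, 5 genes were called for WT minus no ARID1A and 6 for ΔIDR1b minus WT, and 1 and 0 when a trend with coding length was removed as well. Without the first library of WT with EWS-FLI1, 8 and 9 genes were called, and 1 for WT minus no ARID1A without the first library of no ARID1A with the empty vector.

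The changes of the genes were set against their lengths. The length in the count tables is the number of bases in the union of all annotated exons. For many of these genes it is far longer than the coding sequence: RPS29 has 9840 exonic bases and 168 coding bases, RPS27L 8825 and 252, RPL14 8626 and 645, and RPSA 7689 and 885. At the other end stand RPS12 with 639 exonic and 396 coding bases, RPS27 with 1028 and 252, and RPL41, the shortest ribosomal protein, with 1108 and 75. Over the 80 genes, the log2 fold change had a Spearman's rho with exonic length between -0.12 and 0.18 in the 12 comparisons, close to 0 throughout. By the named lengths, ΔIDR1b against no ARID1A with the empty vector gave log2 fold changes of -0.69 in RPS12, -0.75 in RPS27, -0.76 in RPS21 and -0.63 in RPL41, which with RPL39L have the fewest exonic bases. Those with the most gave -1.09 in RPS29, -0.94 in RPS27L, -0.89 in RPL14, -0.64 in RPL37, -0.82 in RPS24 and -0.58 in RPSA, so the 2 ends of the exonic lengths overlapped.

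Coding length, added after the files had been seen and taken from GENCODE release 29, related to the changes more strongly in several comparisons. For EWS-FLI1 against the empty vector, rho over 80 genes was 0.56 in WT, -0.74 in no ARID1A and -0.43 in ΔIDR1b, and over all 13848 genes with a coding length it was 0.13, -0.01 and -0.11. The 11 genes with under 300 coding bases (RPL37, RPL37A, RPL38, RPL39, RPL39L, RPL41, RPS21, RPS27, RPS27L, RPS28 and RPS29) had median log2 fold changes of -0.30 in WT, 0.18 in no ARID1A and 0.24 in ΔIDR1b. The 23 genes with over 600 had -0.11, -0.02 and 0.04. Short genes were thus higher with EWS-FLI1 in no ARID1A and ΔIDR1b and lower in WT by these medians, with no gene called.

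The fall in ΔIDR1b against no ARID1A was seen at every coding length. Against no ARID1A with the empty vector the median log2 fold change was -0.81 for the short genes, -0.77 for the 46 of 300 to 600 coding bases and -0.62 for the long ones, with 10, 46 and 23 genes called lower. With EWS-FLI1 these medians were -0.72, -0.73 and -0.53. For ΔIDR1b against WT in the presence of EWS-FLI1 they were -0.35, -0.46 and -0.44, with 4 of 11 short genes called lower against 45 of 46 and 22 of 23 longer ones. Between WT and no ARID1A, both with EWS-FLI1, they were -0.39, -0.25 and -0.12, and all 22 genes called lower had under 600 coding bases. After removal of the trend with coding length, 76 genes were called lower for ΔIDR1b against no ARID1A with EWS-FLI1, and 77 lower and 1 higher (RPL39L) with the empty vector.

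**Figure D4:**
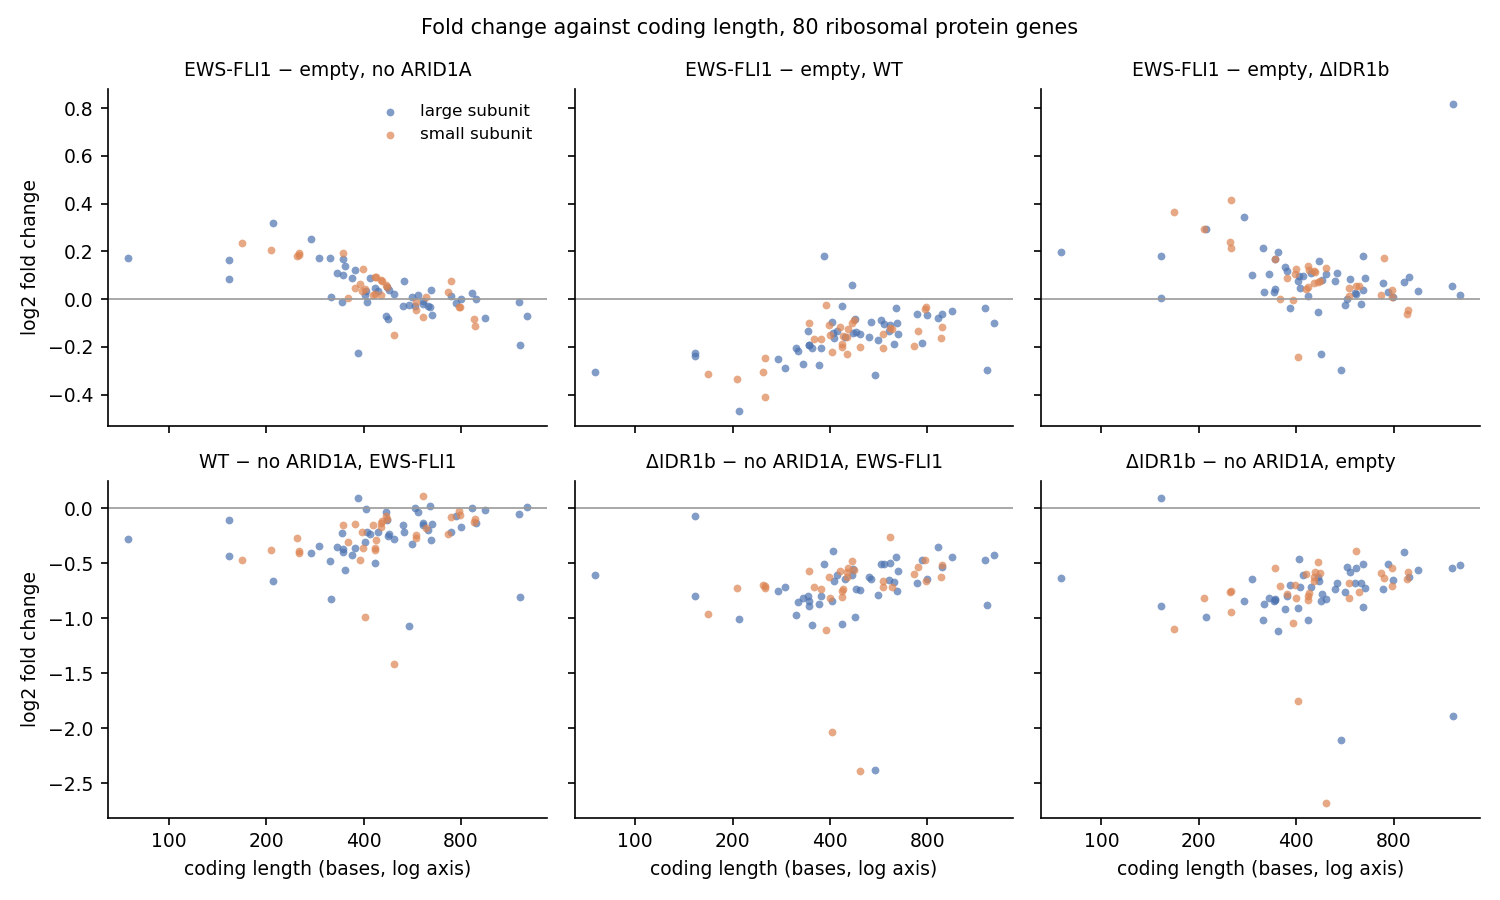
Log2 fold change (vertical axis, with 1 scale per row of panels) against coding length in bases (horizontal log axis) for 80 ribosomal protein genes, 1 point per gene, large subunit in blue and small in orange. In the upper panels, EWS-FLI1 against the empty vector, the short genes lie above the long ones in no ARID1A (rho -0.74) and below them in WT (rho 0.56), and in the lower panels nearly all genes lie below 0 in ΔIDR1b.

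A slope with coding length of the same kind separated libraries of a single group. The difference between repeat 1 and repeat 2 had a rho with coding length of -0.63 in no ARID1A with the empty vector, -0.57 in no ARID1A with EWS-FLI1, -0.53 in WT with EWS-FLI1 and -0.55 in ΔIDR1b with the empty vector, and of -0.01 and 0.05 in the other two groups. In no ARID1A with the empty vector the short genes differed between the repeats by a median of 0.52 and the long ones by 0.10 on the log2 scale. In WT with EWS-FLI1 the medians were 0.51 and 0.10. The difference between repeats in the short genes was larger in these 2 groups than the difference between EWS-FLI1 and the empty vector, whose median in WT was -0.30. RPS28 in the small subunit shows it: its 2 libraries of no ARID1A with the empty vector stood at 539 and 324 CPM. What set the libraries apart by length was not tested.

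The subunits did not separate. Against no ARID1A with the empty vector, ΔIDR1b had a median log2 fold change of -0.72 over 48 large-subunit genes (47 lower) and -0.71 over 32 small-subunit genes (32 lower). With EWS-FLI1 the medians were -0.66 and -0.68, with 46 and 32 genes lower. Between WT and no ARID1A, both with EWS-FLI1, they were -0.22 and -0.23, with 14 and 8 lower. In none of the 12 comparisons did the medians of the subunits differ by more than 0.0443 on the log2 scale.

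The genes were also divided by their start sites. Those with a pyrimidine run had a median log2 fold change of -0.75 in ΔIDR1b against no ARID1A with the empty vector (46 genes), and those without it -0.57 (17 genes). With EWS-FLI1 the medians were -0.71 and -0.57. For the letters CCGGAAG the medians were -0.72 with (23 genes) and -0.74 without them (40 genes). These divisions are descriptions of annotated starts and were not tested. They were not matched for coding length, which had a rho of 0.43 with this fall with the empty vector.

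The paralogues were among the genes with the lowest levels. Per kilobase of coding sequence, RPL41 stood highest (6734 CPM per kb, the mean over the 6 groups), followed by RPS2 (5866), and RPS27L (111), RPL39L (79.0) and RPL3L (1.58) stood near the bottom. RPS27L, a p53-inducible copy of RPS27, stood at 31.9 and 32.1 CPM in no ARID1A, 33.5 and 32.5 in WT and 16.6 and 16.7 in ΔIDR1b with the empty vector, and it fell in ΔIDR1b against no ARID1A (log2 fold change -0.94 with an SE of 0.15, adjusted p = 1.08e-05). With EWS-FLI1 it stood at 35.7 and 37.0 CPM in no ARID1A, 32.1 and 23.4 CPM in WT and 22.3 and 22.2 CPM in ΔIDR1b. RPL39L kept to 9.25 to 15.4 CPM over all 12 libraries, and none of the 12 comparisons called it, whereas RPL39, which lines the peptide tunnel, fell from 429 and 331 to 229 and 180.0 CPM (log2 fold change -0.89 with an SE of 0.13, adjusted p = 2.57e-06). Reads shared with processed pseudogenes, of which the genome holds many for these genes, were not counted where they mapped to several places, so levels of single genes are uncertain.

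Other genes of the same pathways were listed from general knowledge. Their counts stand against shares over all genes of 16.8% lower and 16.4% higher in ΔIDR1b against no ARID1A with the empty vector, 17.9% and 18.1% in the presence of EWS-FLI1, and 5.19% and 6.5% in WT against no ARID1A with the empty vector. A list of other TOP mRNAs holds genes that are not ribosomal protein genes by the rule. Of its 16 genes with a RefSeq start entry, 11 (68.8%) had a pyrimidine run as defined above. Of the 22 tested, 18 were lower and 1 higher in ΔIDR1b than in no ARID1A with the empty vector (median log2 fold change -0.44). With EWS-FLI1 these were 14 and 2 (median -0.38). SNHG1 (log2 fold change -2.19, adjusted p = 5.99e-17) and GAS5 (log2 fold change -1.30, adjusted p = 4.90e-12), noncoding hosts of small nucleolar RNAs, were among those that fell. In WT against no ARID1A with the empty vector, 2 of the 22 were lower and 0 higher. Of the 78 tested genes of the mitochondrial ribosome, whose mRNAs are mostly without a TOP tract, 28 were lower and 1 higher in ΔIDR1b with the empty vector, with a median of -0.15, and 22 and 13 with EWS-FLI1 (median -0.14). None of these lists holds a member of the cytosolic list.

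For genes that build the ribosome the shares over all genes are again 16.8% lower and 16.4% higher in ΔIDR1b with the empty vector; in WT with EWS-FLI1 they were 8.36% and 9.72%. Of 41 tested ribosome biogenesis factors, 11 were higher and 9 lower in ΔIDR1b than in no ARID1A with the empty vector (median log2 fold change 0.03), and 15 and 6 with EWS-FLI1 (median 0.14). Between WT and no ARID1A, 11 rose and 0 fell when EWS-FLI1 was absent, and 12 and 0 when it was present. BRIX1, a factor of large-subunit assembly, fell in ΔIDR1b (log2 fold change -1.005, adjusted p = 7.00e-07), while RRP1B rose (log2 fold change 0.78, adjusted p = 1.94e-07). Of 14 genes of RNA polymerase I, which transcribes the ribosomal RNA precursor, 4 were higher and 6 lower in ΔIDR1b with the empty vector, with its largest subunit POLR1A higher (log2 fold change 0.83, adjusted p = 2.70e-07) and TAF1D of the initiation factor SL1 lower (log2 fold change -1.29, adjusted p = 3.57e-10). Of 4 paralogues that the rule leaves out, RPL7L1, an assembly factor related to RPL7, rose (log2 fold change 0.68, adjusted p = 8.18e-07) and RPL22L1 fell (log2 fold change -0.68, adjusted p = 4.06e-05), and RPL26L1 and RPL36AL were not called.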

How the data were processed

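The deposited values are raw counts: per the file headers, the authors counted read pairs per gene name with featureCounts 2.0.1 over exons of GENCODE release 41 (GRCh38.p13), with both ends mapped, without a strand option and leaving out multi-mapping fragments and fragments over several gene names. STAR and SAMtools are named in the submitters' processing notes, without versions. Antisense and overlapping genes can therefore not be told apart.

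From these counts, 20377 of 60645 genes passed filterByExpr (minimum count 10, total 15, by group). All 12 libraries entered 1 edgeR 4.0.16 quasi-likelihood fit (R 4.3.3, TMM scaling, 1 mean per group), with 12 contrasts and Benjamini-Hochberg adjustment over all genes in each. A gene was called at an adjusted p under 0.05. The common biological coefficient of variation was 10.1%. Alternatives were DESeq2 1.42.0, other scalings and filters, repeat blocks, length trends and leaving out each library. The fit was tested on simulated data.

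The genes, the lists and their markers were chosen with earlier results of these data known. The genes named were the stalk, 5S and other structural groups, the shortest and longest by exons, the paralogues, the 10 largest changes per comparison and the 5 smallest interaction p-values, from which the text selects; the genes of Diamond-Blackfan anaemia, RPS28 and those marked in the text were added after values were seen. Coding lengths are from GENCODE release 29. Repeat numbers come from the labels, which give no shared culture or day. Among the libraries with EWS-FLI1, same-numbered libraries deviated together over 11150 genes (r = 0.205, 0.140 and 0.390). With the empty vector r was 0.0975, 0.134 and 0.180. Blocked values therefore stand beside the results they change. A few genes are not reported by name here and stay in the fits and counts.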

Additional observations from a re-analysis of the deposited data

How the results depend on the processing

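The falls in ΔIDR1b against no ARID1A and, with the empty vector, against WT kept their count of genes within 1.5 times under every alternative run. The other counts depended on the setting, and the causes were not tested. Between WT and no ARID1A, both with EWS-FLI1 (22 genes), upper-quartile scaling gave 35 and a fit of only the libraries compared 14. The replicate block within vector gave 43, with the exonic length trend removed 38 and with the coding length trend removed 43. The share of all genes called in either direction was 18.1% in the main fit. Under these settings it came to 17.5%, 12.3%, 23.8%, 22.8% and 22.8%, in the same order. With the empty vector (6 genes) the block gave 12 (7 lower and 5 higher) with the exonic and 15 (all lower) with the coding length trend removed. The main fit called 11.7% of all genes here, and these blocked fits 17.2% and 16.6%. When only ribosomal protein genes with under 50% of their coding bases shared were counted, 0 remained. For ΔIDR1b against WT with EWS-FLI1 (71 genes), a fit of only the libraries compared gave 35. There the share of all genes called also fell, from 18.6% to 8.97%. For EWS-FLI1 in WT (0 genes), no filter gave 2, the replicate block 4, and the block with the exonic or coding length trend removed 3 or 1. All genes were called at 0.221% in the main fit, and at 0.189%, 0.584%, 0.564% and 0.555% under these settings. In ΔIDR1b (0 genes) the block gave 2, with or without the exonic length trend. The block called 0.535% of all genes, and 0.594% with the exonic length trend removed, against 0.172% in the main fit. The interaction of WT minus no ARID1A (0 genes) gave 1 with no filter, 5 with the block, 5 with the exonic and 1 with the coding length trend removed as well. That of ΔIDR1b minus WT (0 genes) gave 4 with no filter, 6 with the block and 5 with the block and the exonic length trend removed.

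Leaving out 1 library at a time gave 0 to 0 genes for EWS-FLI1 in no ARID1A, 0 to 13 in WT and 0 to 1 in ΔIDR1b. With the empty vector it gave 3 to 7 for WT against no ARID1A, 73 to 79 for ΔIDR1b against no ARID1A and 75 to 77 for ΔIDR1b against WT, and with EWS-FLI1 5 to 44, 74 to 79 and 34 to 77. The interactions gave 0 to 8 (WT minus no ARID1A), 0 to 0 (ΔIDR1b minus no ARID1A) and 0 to 9 (ΔIDR1b minus WT). Where a group kept 1 library, that library was assumed to vary like the others. Between WT and no ARID1A, the share of all genes called also moved with the library left out. A block across all groups gave 30 between WT and no ARID1A when EWS-FLI1 was present, and the main count elsewhere. With the empty vector, same-numbered libraries correlated at 0.0975, 0.134 and 0.180 over genes, against 0.205, 0.140 and 0.390 with EWS-FLI1. Whether the numbers mark pairs was not tested for either vector. In the 80 genes, repeat 1 stood above repeat 2 in 69 (no ARID1A), 78 (WT) and 71 (ΔIDR1b) with the empty vector. With EWS-FLI1 it did so in 62, 66 and 3. Values of single genes were also followed across settings, for a part of the genes and comparisons. Of these, 7148 kept their side of the threshold, 135 passed it, 99 lost it and 1 was labelled reversed. That was RPS29 in ΔIDR1b against WT with EWS-FLI1. It had a log2 fold change of 0.027 without the first and -0.89 without the second library of WT with EWS-FLI1. Sign changes of uncalled values near 0, as in the medians that crossed 0 with 1 library left out, are not in this count. Protein lengths from RefSeq were to be tried in place of exonic lengths and were not run. The 2 libraries a group limit the precision, and RPL3L has few counts.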

Other observations

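Nuclear genes of the respiratory chain, which encode other short and abundant mRNAs, are described first, beside shares over all genes of 16.8% lower and 16.4% higher in ΔIDR1b against no ARID1A with the empty vector. In the presence of EWS-FLI1 these shares were 17.9% and 18.1%. Of 71 tested genes with a coding length, 47 were lower and 2 higher than in no ARID1A with the empty vector (median log2 fold change -0.44), and 39 and 2 with EWS-FLI1. The list as first written matched 141 names, pseudogenes among them, of which 77 were tested (51 lower, 2 higher with the empty vector). Of 25 tested names of the mitochondrial genome, 11 were higher and 6 lower, while all its counts together took 2.24% and 2.26% of the libraries in no ARID1A and 1.88% and 2.09% in ΔIDR1b. Of 1350 names of pseudogenes of ribosomal protein genes, 192 were tested, 39 of them lower, to be read against the 16.8% of all genes, and 5 higher.

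The following counts stand beside 16.4% of all genes higher and 16.8% lower in ΔIDR1b, and 6.5% and 5.19% in WT, against no ARID1A with the empty vector. Among 14 genes of the mTORC1 and MYC pathways, 6 were higher and 3 lower in ΔIDR1b than in no ARID1A with the empty vector. With EWS-FLI1, MYC was higher in WT (log2 fold change 1.02, adjusted p = 9.61e-08) and in ΔIDR1b (log2 fold change 0.72, adjusted p = 9.64e-06) than in no ARID1A. Of 10 targets of p53 known to respond to free ribosomal protein, 4 were higher and 1 lower in ΔIDR1b, and 4 and 0 in WT, against no ARID1A with the empty vector. GDF15, a secreted stress factor, led both (log2 fold change 1.19, adjusted p = 5.25e-05 in ΔIDR1b and log2 fold change 1.29, adjusted p = 9.64e-05 in WT). HEK-293T cells carry the SV40 large T antigen, which binds p53.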
